A study of Mus musculus with 2 samples.

Results

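Mas-related G protein-coupled receptors (Mrgprs) form a receptor family that is largely restricted to small-diameter sensory neurons, where individual members respond to itch-inducing compounds, peptides and metabolites. Mrgprd, the receptor for beta-alanine, marks nonpeptidergic nociceptors that end in the skin, Mrgpra3 is the chloroquine receptor of itch-sensing neurons, and Mrgprx1 responds to peptides of the BAM type and is found in part of the same itch-sensing neurons. Mrgprb4 marks C-fibers that respond to stroking of hairy skin, Mrgprb5 is a close relative of Mrgprb4, and Mrgpre is an orphan receptor that is not tied to a single class of sensory neurons. These 6 genes were taken by their symbols from the 39098 gene symbols of 2 single-cell libraries of mouse trigeminal ganglion (TG), and 22 other genes of the family are listed in the files. The question asked was at which level each receptor was present in single neurons, and which receptors were found together in a neuron or excluded each other.

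Cells came from the right TGs of male C57BL/6 mice aged 5 to 8 weeks, a week after an injection into the right vibrissal pad. In the study's methods the control mice received saline and the inflamed mice 20 μL of complete Freund's adjuvant (CFA) in saline, an oil emulsion with killed mycobacteria that causes lasting inflammation, while the sample labels call the control untreated. There was 1 BD Rhapsody library per condition, and the number of mice behind a library is not given, so that every difference between the conditions is a difference between 2 libraries and has no replicate check. No p-values were computed for this reason. Values in parentheses after a level, a share or a ratio are exact 95% intervals, which cover counting error only and not the variation between mice. Intervals of levels and ratios count every UMI as independent, so they also leave out the variation between neurons. They are too narrow where few neurons hold most of the UMIs.

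A cell was taken as a neuron when it held at least 5000 unique molecular identifiers (UMIs, each standing for a captured RNA molecule) and at least 10 UMIs of the neuronal genes Tubb3, Snap25 and Stmn2 together. This left 795 neurons of 6695 kept cells in the control library and 409 neurons of 3661 kept cells in the CFA library. Median depth was 44575 UMIs per control neuron and 36857 UMIs per CFA neuron, and the neurons held 38555079 and 16768978 UMIs in all. Levels are given as CPM, the summed UMIs of a gene in a set of cells as counts per 1000000 UMIs of the same cells. The level of these 3 genes in the neurons follows from the rule, so neuronal genes outside it were looked at. Uchl1 was at 4980 CPM in control and 4617 CPM in CFA neurons against 451 and 305 CPM in the other cells. Prph was at 2727 and 2486 CPM in neurons against 185 and 111 CPM in the other cells. No cell barcode was shared between the neurons of the libraries, and 27 barcodes were shared over all cells. Clustering without any gene of the family split the neurons into classes named after markers of nonpeptidergic (NP1-like and NP2-like), peptidergic (PEP1-like and PEP2-like), C-fiber low-threshold mechanoreceptor (cLTMR-like), Trpm8 cold-sensing-like and large-diameter Nefh-positive (NF-like) neurons. NP1-like neurons numbered 172 (control) and 65 (CFA), NP2-like neurons 50 and 15, and PEP1-like neurons 398 and 225.

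All 6 genes lie on chromosome 7 (GRCm38, GENCODE M21), 4 of them in the family's gene cluster on the minus strand. Mrgpra3 has 2 exons at chr7:47588950-47601372, Mrgprx1 has 2 exons at chr7:48020971-48027597, and the single-exon genes Mrgprb5 and Mrgprb4 lie at chr7:48167983-48169019 and chr7:48198070-48199288. Mrgpre (2 exons, minus strand, chr7:143778363-143784500) and Mrgprd (2 exons, plus strand, chr7:145314835-145324086) stand apart from that cluster. Family members resemble each other in sequence, which could let reads be assigned to a relative. Of all 50-base stretches of the longest annotated transcript, 0% of Mrgprd, 0.76% of Mrgpre, 0.81% of Mrgprb5, 1.45% of Mrgprb4, 5.84% of Mrgprx1 and 7.14% of Mrgpra3 also occur in a transcript of another gene. In the last 500 bases, the end that a 3′ library reads, the shared part was 9.09% for Mrgprx1, 2.66% for Mrgpra3, 1.77% for Mrgprb4 and for Mrgprb5, and 0% for Mrgprd and Mrgpre.

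Mrgprb4 and Mrgprb5 are shown by sequence because their upstream regions were the most alike of the pairs compared. No neuron held both genes, but with few holders of either this was not read as exclusion, as described further on. Over the 250 bases before the start of the RefSeq gene, 206 (82.4%) were the same and no gap was needed, whereas every other pair of the 5 members with a promoter in the RefSeq table had 46.5% to 52.9% of aligned columns in common. Mrgpra3 had no entry in that table. The lines below give, 5′ to 3′ on the minus strand of GRCm38.p6, the 140 bases that lie upstream of both the RefSeq and the GENCODE start, chr7:48199289-48199428 for Mrgprb4 and chr7:48169096-48169235 for Mrgprb5. Capitals mark the 30 bases that differ between the genes, and the other 110 (78.6%) are the same. The rest of the 250 bases lies in part inside the genes as GENCODE annotates them.
Mrgprb4: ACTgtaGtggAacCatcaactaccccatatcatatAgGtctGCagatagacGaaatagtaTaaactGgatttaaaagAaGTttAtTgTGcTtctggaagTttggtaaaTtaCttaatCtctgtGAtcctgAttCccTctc
Mrgprb5: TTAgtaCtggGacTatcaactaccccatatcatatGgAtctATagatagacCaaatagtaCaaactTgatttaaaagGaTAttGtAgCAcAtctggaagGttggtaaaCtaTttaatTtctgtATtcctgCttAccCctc
The core motif TGTGGT of RUNX factors was searched on both strands of the 250 bases, since Runx1 is known to control Mrgpr genes in nociceptors. It was found in 0 of the 5 members' windows and in 14% of all 32851 windows in the table, which describes these letters only.

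Mrgprd was the receptor of NP1-like neurons. In the control library 6056 UMIs were counted in neurons, 157 CPM (153–161), and in the CFA library 1940 UMIs, 116 CPM (111–121). At least 3 UMIs, the number used here to say that a neuron held a gene, were present in 174 control neurons (21.9%, 19.1%–24.9%) and in 66 CFA neurons (16.1%, 12.7%–20.1%). Holders were rich in the transcript, with a median of 34 UMIs (range 3–105) in the control and 28.5 UMIs (range 3–75) in the CFA library. Of the NP1-like neurons, 158 of 172 and 61 of 65 were holders. These neurons carried 513 CPM (500–526) and 476 CPM (454–498), and the next highest named class was NP2-like with 6.37 CPM (4.04–9.56) and 6.66 CPM (2.45–14.5). A further cluster of 14 control and 3 CFA neurons stayed unnamed, since its median depth was low (13592 and 11101 UMIs) and 0 of its 10 leading genes were class markers, although 7 of 7 NP1 markers were detected. Its leading genes included Malat1 and the mitochondrial genes mt-Rnr1, mt-Rnr2, mt-Nd4 and mt-Nd5, and it held Mrgprd at 476 and 885 CPM.

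A single UMI was not read as expression. In Trpm8 cold-sensing-like neurons, 7 of 62 control cells had 1 or more Mrgprd UMIs at a median depth of 41555 UMIs and 0 had 3, and in the CFA library 0 of 37 had any at 30085 UMIs. Outside the neurons Mrgprd was at 9.82 CPM in the control and 6.55 CPM in the CFA library, where 1.17% and 0.68% of cells held 1 or more UMIs at median depths of 1307 and 1095 UMIs. Myelinating Schwann-like cells, which should lack the gene, had 8.18 CPM in the control and 4.06 CPM in the CFA library. The other named classes had 1.84 to 6.37 CPM in the control library, and NP2-like CFA neurons had 6.66 CPM. Cells outside the neurons were far shallower, so their CPM is no floor for neurons. Whether these low class levels are expression was not tested. Single PEP1-like neurons had up to 20 (control) and 13 (CFA) Mrgprd UMIs. With neurons thinned to 5000 UMIs each, 22.4% (19.5%–25.5%) of control and 13.7% (10.5%–17.4%) of CFA neurons had 1 or more Mrgprd UMIs.

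Mrgpra3 was found in NP2-like neurons. It reached 58.3 CPM (55.9–60.8) over all control neurons and 35.2 CPM (32.4–38.1) over all CFA neurons. Holders numbered 45 (5.66%, 4.16%–7.50%) and 13 (3.18%, 1.70%–5.37%), each of them NP2-like, and they made up 45 of the 50 and 13 of the 15 neurons of that class. The markers that named this class overlap with genes the study lists for its own NP2 subtype of these libraries. The study defined that subtype by Mrgpra3, so the class name is not independent of this gene. A holder had a median of 38 UMIs (range 5–195) in the control and 32 UMIs (range 9–104) in the CFA library. The class carried 612 CPM (587–638) and 648 CPM (596–702), and the next highest named class was Trpm8 cold-sensing-like with 2.26 CPM in the control and PEP2-like with 3.65 CPM, from 2 UMIs, in the CFA library. The other cells differed between the libraries, with 55 UMIs (5.68 CPM) in the control and 1 UMI (0.20 CPM) in the CFA library.

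The plot of Mrgprd against Mrgpra3 shows 2 separate arms of neurons with 3 neurons beyond both thresholds. In the control library 2 of the 174 Mrgprd holders (1.15%, 0.14%–4.09%) also held Mrgpra3, compared with 6.92% (5.06%–9.21%) of the other neurons. In the CFA library it was 1 of 66 (1.52%, 0.04%–8.16%) against 3.50% of the others. The 3 neurons that held both were NP2-like, with 20, 41 and 32 UMIs of Mrgpra3 but 3, 3 and 5 UMIs of Mrgprd. Their doublet scores were 0.070, 0.059 and 0.090, under the limit of 0.25 used here. Of all neurons, 5 control and 1 CFA scored above that limit, and the automatic doublet threshold was read as not having worked. These scores therefore cannot settle whether the 3 cells were doublets. When 5 UMIs were asked for, 0 of 161 control and 1 of 63 CFA Mrgprd neurons held both.

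**Figure D1:**
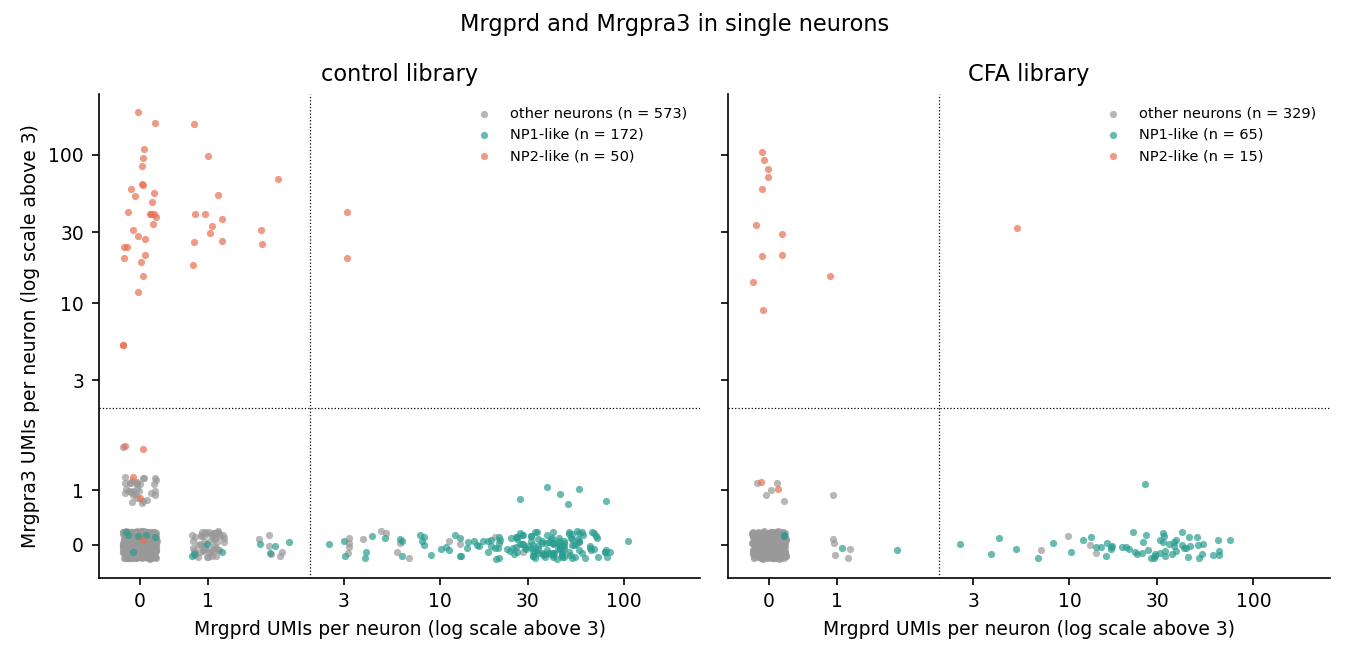
UMIs of Mrgprd (x axis) and Mrgpra3 (y axis) in each neuron of the control (left) and CFA (right) library, on axes that are linear up to 3 and logarithmic above, with points moved slightly at random so that they can be told apart. Dotted lines separate neurons with at least 3 UMIs of a gene. NP1-like neurons lie along the x axis, NP2-like neurons along the y axis, and 2 control neurons and 1 CFA neuron lie beyond both lines.

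Mrgprx1 was less confined than Mrgpra3. Its level was 7.63 CPM (6.78–8.55) in control and 4.17 CPM (3.25–5.27) in CFA neurons, and 38 (4.78%, 3.40%–6.50%) and 8 neurons (1.96%, 0.85%–3.82%) were holders, with at most 9 and 6 UMIs in a neuron. NP2-like neurons carried 44.6 CPM (38.0–52.1) in the control and 35.5 CPM (24.3–50.2) in the CFA library. PEP1-like neurons carried 7.41 CPM (6.11–8.89) and 3.68 CPM (2.45–5.32), and NP1-like neurons 1.49 and 2.02 CPM. There were 0 Mrgprx1 UMIs in cLTMR-like, Trpm8 cold-sensing-like and NF-like neurons of either library. The upper limits for cLTMR-like and Trpm8 cold-sensing-like neurons were 0.94 and 1.39 CPM in the control library, below the PEP1-like interval, and 1.70 and 3.05 CPM in the CFA library, where the second reached into it. It was unevenly spread among PEP1-like neurons. In the control library the cluster led by Nos1, Chrnb4 and Chrna3 had 13.7 CPM (10.3–17.9) and that led by Htr3a, Trappc3l and S100b had 9.32 CPM (6.03–13.8), against 2.51 and 2.62 CPM in the largest 2 clusters, and that led by Mfap5 had 8.35 CPM (4.45–14.3). In the CFA library these clusters had, in the same order, 3.38 (0.92–8.65), 7.16 (3.43–13.2), 2.50, 1.04 and 9.49 CPM (3.48–20.7). At a clustering resolution of 2, a cluster led by Trappc3l, Htr3a and S100b was named NF-like. The line between PEP1-like and NF-like neurons thus depends on the resolution.

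Mrgprx1 was held by a larger share of Mrgpra3 neurons than of other neurons. Of the 45 control Mrgpra3 holders, 26 (57.8%, 42.2%–72.3%) held Mrgprx1, against 1.60% of the neurons without Mrgpra3. Of the 13 CFA holders, 5 (38.5%, 13.9%–68.4%) held it, against 0.76%. In the other direction, 26 of 38 control and 5 of 8 CFA Mrgprx1 holders held Mrgpra3. The 12 control neurons with Mrgprx1 but without Mrgpra3 were 10 PEP1-like and 2 NP1-like cells, and 3 of the 12 also held Mrgprd, at 19, 20 and 26 UMIs. The 3 such CFA neurons were 2 PEP1-like cells and 1 NP1-like cell with 25 UMIs of Mrgprd. Whether the neurons with both Mrgprx1 and Mrgprd were doublets was likewise not settled. Mrgprx1 was a low-count gene, and its share in Mrgpra3 neurons dropped to 22.7% in the control library when neurons were thinned to 5000 UMIs. The order of holders against other neurons was kept in both libraries, at 2.40% of the others in the control and 30.8% against 1.01% in the CFA library.

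Mrgprb4 was found inside the Mrgpra3 population. In the control library 104 of its 105 neuronal UMIs were in NP2-like neurons, and in the CFA library 29 of 30, which came to 28.8 CPM (23.5–34.9) and 32.2 CPM (21.6–46.3) in this class. All 17 control holders (100%, 80.5%–100%) and all 4 CFA holders (100%, 39.8%–100%) also held Mrgpra3. The reverse did not hold, since 17 of 45 control Mrgpra3 holders (37.8%, 23.8%–53.5%) and 4 of 13 CFA holders (30.8%, 9.09%–61.4%) had Mrgprb4.

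The NP2-like class consisted of 2 clusters, and Mrgprb4 was detected in 1 of them. They came from a clustering that did not use any Mrgpr gene, and the same 2 clusters were found at resolutions of 0.5 and 2. The first, led by Cbln1 and with Rgs5 and Gfra1 among its leading genes, held 28 control and 8 CFA neurons. Mrgprb4 had 1 or more UMIs in 25 of the 28 (50.3 CPM, 41.1–61.0) and in 7 of the 8 (62.5 CPM, 41.8–89.7), of which 17 and 4 were holders. The second, led by Crip1 and Gda, held 22 control and 7 CFA neurons and had 0 Mrgprb4 UMIs in both libraries, at median depths like those of the first (71309 and 67018 UMIs over both libraries). For a count of 0 a floor of 3 UMIs over the cluster was used, 1.95 CPM in the control and 6.88 CPM in the CFA library. Against this floor Mrgprb4 was 25.9-fold higher in the first cluster of the control library and 9.07-fold higher in that of the CFA library. The exact upper limits of the second cluster were 2.39 and 8.46 CPM, somewhat above the floor and below the intervals of the first cluster. The folds against these limits would be smaller.

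The same clusters differed in the other receptors. Mrgpra3 was lower in the Mrgprb4 cluster, with a median over neurons of 331 CPM (range 0–671) against 1008 CPM (range 85.2–1966) in the control library. The CFA library gave 290.2 CPM (range 66.0–427) against 1569 CPM (range 146–1768). The ranges overlapped in both libraries, and summed over the clusters the levels were 358 CPM (332–384) against 954 CPM (906–1004) and 299 CPM (252–353) against 1019 CPM (926–1118). Mrgprx1 had 1 or more UMIs in both clusters, in 22 of 28 and 20 of 22 control neurons and in 5 of 8 and 7 of 7 CFA neurons. Holders of it, from 3 UMIs, were 14 and 12 of these control and 1 and 4 of these CFA neurons. Mrgprb5 ran the other way from Mrgprb4 in the control library, at 1.45 CPM (0.30–4.24) in the first cluster and 16.9 CPM (11.0–24.7) in the second. In the CFA library it was at 10.8 CPM (3.50–25.1) and 9.18 CPM (2.50–23.5), intervals that overlap widely on 5 and 4 UMIs.

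**Figure D2:**
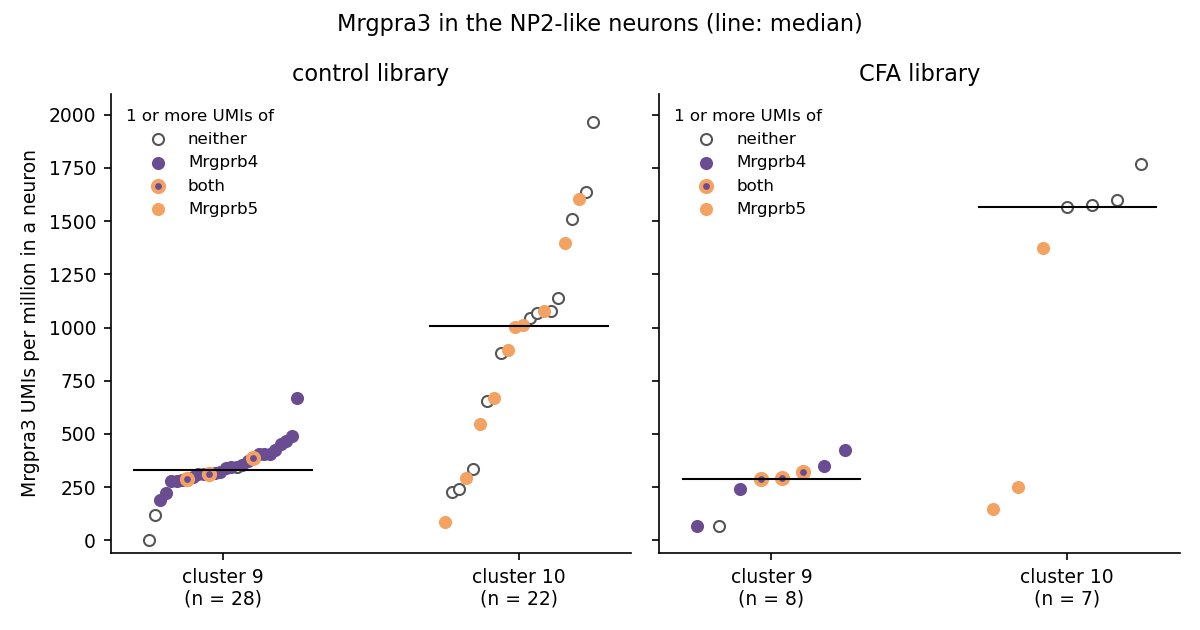
Mrgpra3 level (CPM, y axis) of every NP2-like neuron in the 2 clusters of this class, cluster 9 led by Cbln1 and cluster 10 led by Crip1, for the control (left) and CFA (right) library, with neurons ordered by level within a cluster and a line at the median. Fill colors give the neurons with 1 or more UMIs of Mrgprb4, Mrgprb5, both or neither. Mrgprb4 was present in 25 of 28 control and 7 of 8 CFA neurons of cluster 9 and in none of the 22 and 7 neurons of cluster 10, where the medians of Mrgpra3 were 1008 and 1569 CPM.

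Genes of the itch, signalling and nonpeptidergic lists also differed between these clusters, as a description only, since such genes took part in the clustering. Trpv1, the capsaicin receptor channel, was at 6.77 CPM in the Mrgprb4 cluster and 224 CPM in the other of the control library, and at 4.31 and 181 CPM in the CFA library. The histamine receptor gene Hrh1 was at 8.71 against 66.8 CPM and at 12.9 against 55.1 CPM, and the interleukin receptor gene Il4ra at 22.7 against 68.7 CPM and at 34.5 against 57.4 CPM. Trpa1, an irritant-sensing channel, had the opposite order with 121 against 22.0 CPM and 114 against 13.8 CPM, as had the leukotriene receptor gene Cysltr2 with 45 against 5.19 CPM and 34.5 against 6.88 CPM. Thus the Mrgprb4 cluster was lower than the other cluster in Trpv1 and Hrh1 and higher in Trpa1 and Cysltr2, in the libraries of both conditions. This order compares the clusters with each other only and not with other neurons. Plcb3, the phospholipase downstream of Mrgpr receptors, was alike in both clusters, at 555 and 562 CPM in the control and 510.4 and 569 CPM in the CFA library.

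Mrgprb5 went mainly with Mrgprd. It was at 5.01 CPM (4.32–5.76) in control and 5.43 CPM (4.37–6.66) in CFA neurons, and its counts per neuron were low, with 15 holders (1.89%) and 9 holders (2.20%) and at most 6 and 5 UMIs. NP1-like neurons had 14 CPM (11.9–16.4) and 20.2 CPM (16.0–25.1) and NP2-like neurons 8.04 CPM (5.38–11.5) and 10 CPM (4.57–19.0). The other named classes had 0 UMIs apart from 1 in PEP1-like and 1 in cLTMR-like control neurons. Of the holders, 11 of 15 control neurons (73.3%, 44.9%–92.2%) and 9 of 9 CFA neurons (100%, 66.4%–100%) held Mrgprd, against 20.9% and 14.3% of the neurons that did not hold Mrgprb5. From 1 UMI of each, it was 107 of 116 control and 44 of 49 CFA neurons. The remaining 4 control holders held Mrgpra3 and lay in the NP2-like cluster without Mrgprb4. No neuron held both Mrgprb4 and Mrgprb5 in either library, the genes whose upstream sequences are shown above. With 17 and 15 control holders and 4 and 9 CFA holders, however, few such neurons could occur at this depth. From 1 UMI, 4 of 26 control neurons with Mrgprb4 (15.4%, 4.36%–34.9%) also had Mrgprb5, against 14.6% of the neurons without Mrgprb4. In the NP2-like class 3 control and 3 CFA neurons had both. Within the NP1-like class, the cluster led by Lpar3 and Prkcq had 16.2 CPM (13.3–19.5) and 26.4 CPM (20.2–34.0) of Mrgprb5, and that led by Ly86 and Serpina11 had 10.7 CPM (7.90–14.2) and 11.8 CPM (7.22–18.2).

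Mrgpre was counted in several classes of neurons and was not concentrated in NP1-like or NP2-like neurons. It was at 36.0 CPM (34.2–38.0) in control and 32.1 CPM (29.4–34.9) in CFA neurons, and 213 (26.8%, 23.7%–30.0%) and 76 neurons (18.6%, 14.9%–22.7%) were holders, with at most 9 and 8 UMIs. Control neurons were deeper. With neurons thinned to 5000 UMIs, 16.6% (14.1%–19.4%) of control and 14.7% (11.4%–18.5%) of CFA neurons had 1 or more Mrgpre UMIs, intervals that overlap. In the control library PEP1-like neurons came first with 45.2 CPM (41.9–48.7), followed by cLTMR-like with 43.9 CPM (37.6–51) and NP2-like with 40.2 CPM (33.9–47.3), and these 3 intervals overlap. Trpm8 cold-sensing-like (28.2 CPM, 22.2–35.4), PEP2-like (25.7 CPM, 14.1–43.2), NP1-like (23.4 CPM, 20.7–26.4) and NF-like neurons (19.2 CPM, 10.2–32.9) followed, again with overlapping intervals. In the CFA library NP2-like (40.0 CPM, 28–55.4), PEP1-like (39.3 CPM, 35.0–44.0) and cLTMR-like neurons (33.3 CPM, 26.0–41.9) were first and NP1-like neurons had 22.2 CPM (17.8–27.4). PEP2-like (11.0 CPM, 4.02–23.8) and NF-like CFA neurons (11.6 CPM, 3.15–29.6) had 6 and 4 UMIs and 0 holders, so these levels rest on few counts. Their intervals included the level outside neurons, although the CPM of those shallower cells is no floor for neurons. NP1-like neurons were thus below PEP1-like neurons in both libraries beyond counting error, although they were the deeper ones (median 68062 against 36364 UMIs in the control library). Outside neurons Mrgpre was at 6.30 and 5.52 CPM.

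**Figure D3:**
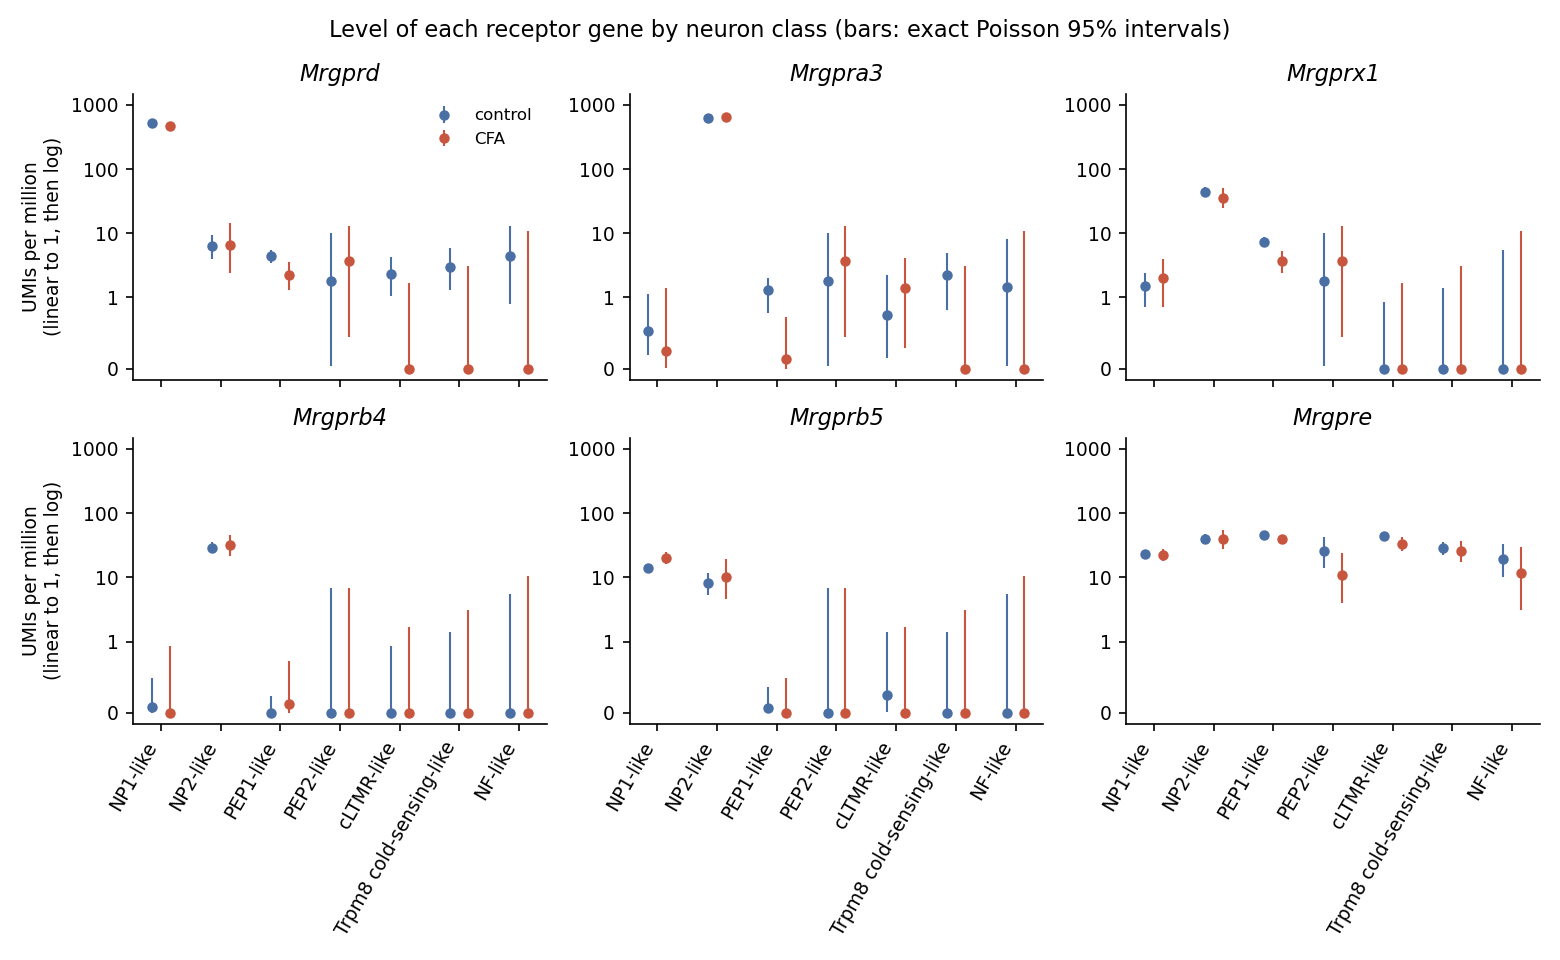
CPM of each of the 6 receptor genes (y axis, linear up to 1 and logarithmic above) by class of neuron (x axis) in the control (blue) and CFA (red) library, with bars for exact Poisson 95% intervals. Mrgprd stood out in NP1-like neurons (513 and 476 CPM), Mrgpra3 (612 and 648 CPM) and Mrgprb4 in NP2-like neurons, while Mrgpre ranged from 19.2 to 45.2 CPM over the named classes of the control library.

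Most neurons held few of the receptors. Leaving Mrgpre aside, 569 of 795 control neurons (71.6%) and 329 of 409 CFA neurons (80.4%) held none of the other 5, and 180 and 61 held 1. In the control library 31 neurons held 2, 13 held 3 and 2 held 4, and in the CFA library 18 held 2 and 1 held 3. Control neurons were deeper, and these counts were not repeated at equal depth. Of all 15 pairs of the 6 genes, 1 was held by 0 neurons in both libraries, Mrgprb4 with Mrgprb5. With so few holders of either gene this was not read as exclusion. Mrgprd was less frequent among Mrgpre holders of the control library, where 36 of 213 control Mrgpre holders (16.9%, 12.1%–22.6%) held Mrgprd against 23.7% (20.3%–27.4%) of the other neurons, intervals that overlap. With neurons thinned to 5000 UMIs these shares were 10.6% (5.92%–17.2%) and 24.7% (21.5%–28.2%), which do not overlap. In the CFA library 12 of 76 Mrgpre holders (15.8%, 8.43%–26.0%) held Mrgprd against 16.2% of the others, and the thinned shares were 16.7% (8.29%–28.5%) and 13.2%. Of the Mrgprx1 neurons, 25 of 38 control and 8 of 8 CFA Mrgprx1 holders held Mrgpre, against 24.8% and 17.0% of the other neurons. With neurons thinned to 5000 UMIs this was 28.6% (13.2%–48.7%) against 16.2% in the control and 12.5% (0.32%–52.7%) against 14.7% in the CFA library, so the order was not kept there. Depth went along with holding a low-count gene, since control Mrgprx1 holders had a median of 78578 UMIs and the other neurons 43386 UMIs, and its part in the shared detection was not tested.

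**Figure D4:**
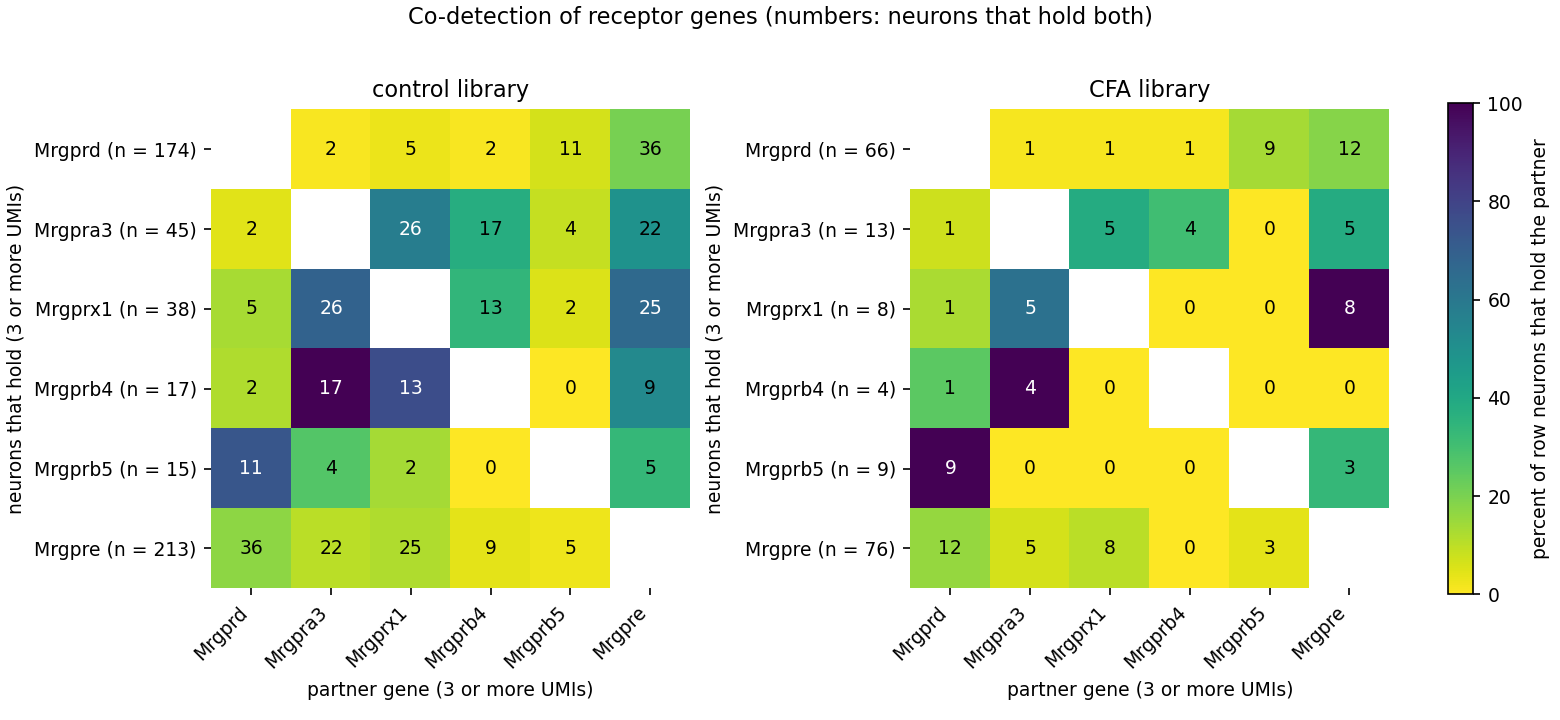
Percent of the neurons that hold the gene named on the y axis (3 or more UMIs, n in parentheses) that also hold the gene named on the x axis, as color from 0 to 100, for the control (left) and CFA (right) library. Numbers count the neurons that hold both. The block of Mrgpra3, Mrgprx1 and Mrgprb4 stands out in the control library. There 13 neurons held both Mrgprx1 and Mrgprb4, while no CFA neuron did. Mrgprb5 neurons went with Mrgprd (11 of 15 and 9 of 9), and Mrgprd with Mrgpra3 has 2 and 1 neurons.

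Across single neurons, Pearson's r of log-scaled counts is given as a description over 795 control and 409 CFA neurons that share a library and are grouped in classes. It was 0.55 and 0.53 for Mrgpra3 with Mrgprx1, 0.49 and 0.67 for Mrgprd with Mrgprb5, 0.47 and 0.37 for Mrgpra3 with Mrgprb4, and −0.13 and −0.07 for Mrgprd with Mrgpra3. Among the genes most like Mrgprd, by the lower r of both libraries, were the lysophosphatidic acid receptor gene Lpar3 (0.89 and 0.88), Prkcq, which encodes protein kinase C theta (0.92 and 0.87), the kainate receptor gene Grik1 (0.87 and 0.82) and Serping1 (0.80 and 0.82). Those most like Mrgpra3 were Gda (0.76 and 0.71), Mustn1 (0.71 and 0.75), Cfap61 (0.86 and 0.63), Zfp945 (0.66 and 0.63) and the transcription factor gene Etv1 (0.77 and 0.59). For Mrgpre the highest value was 0.19, for Nxn, which in sparse counts was not read as likeness.

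Neurons with Mrgprd (172 control and 65 CFA neurons without Mrgpra3) were then set beside neurons with Mrgpra3 (43 and 12 without Mrgprd) over lists of genes for receptor signalling, itch and nonpeptidergic identity. Over all 11420 genes with at least 50 UMIs in these neurons, 5.13% were more than 2-fold higher in Mrgprd neurons in both libraries and 4.82% in Mrgpra3 neurons. Of 20 signalling genes measured, 5 were more than 2-fold higher in Mrgprd neurons (Prkcq, Plcb1, Ano3, Grk3 and Trpa1) and 1 in Mrgpra3 neurons (Trpv1), and the median log2 difference of the list, Mrgpra3 over Mrgprd, was −0.42 (control) and −0.39 (CFA) against −0.02 over all genes in each library. The Mrgpra3 group pooled both NP2-like clusters, so a difference over the group need not hold in each of them. In the Mrgprb4 cluster Trpv1 was lower than in Mrgprd neurons, at 6.77 against 42.6 CPM (control) and 4.31 against 35.2 CPM (CFA). Trpa1 in that cluster was less than 2-fold from Mrgprd neurons, at 121 against 171 CPM and 114 against 164 CPM. Genes of the Gq pathway on this list were not alike against neurons with none of the 5 receptors. Plcb3 was at 574 CPM in Mrgprd, 557 CPM in Mrgpra3 and 94.8 CPM in neurons with none of the 5 receptors of the control library, and at 549.7, 515 and 101 CPM in the CFA library. The Gq-family gene Gna14 had 396, 362 and 87.0 CPM in the control and 381, 297 and 61.5 CPM in the CFA library. Gnaq of the same family had 860, 495 and 290 CPM in the control and 892, 496 and 348 CPM in the CFA library. Plcb4 was low in each, at 11.7, 17.0 and 15.4 CPM and at 10.7, 15.8 and 18.7 CPM. Gna11 was at 63.6, 72.6 and 58.3 CPM in the control and 72.2, 63.2 and 72.8 CPM in the CFA library, and Plcb1 was lower in both groups, at 10.3, 1.19 and 39.2 CPM and at 14.8, 0 and 31.5 CPM.

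Of 9 itch genes measured, 2 were more than 2-fold higher in Mrgprd neurons (Lpar3 and the serotonin receptor gene Htr2a) and 2 in Mrgpra3 neurons (Hrh1 and the oncostatin M receptor gene Osmr), with a median log2 difference of −0.15 in both libraries. Lpar3 was at 542 against 2.69 CPM in the control and 551 against 1.32 CPM in the CFA library, and Htr2a at 19.6 against 0.30 CPM and 20.7 against 1.32 CPM. Osmr had the opposite order with 7.86 against 87.8 CPM and 7.65 against 77.7 CPM. The peptide genes Nppb, Sst and Nts, which belong to PEP2-like itch neurons, were at most at 2.39 CPM in both groups of both libraries.

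Of 15 nonpeptidergic genes measured, 7 were more than 2-fold higher in Mrgprd neurons (Runx1, Gfra2, P2rx3, Lpar3, Prkcq, Agtr1a and Tafa4) and 2 in Mrgpra3 neurons (Gfra1 and Cbfb), with a median log2 difference of −0.98 and −1.03. The receptors for the glial cell line-derived neurotrophic factor family were split between them. Gfra2 was at 501 CPM in Mrgprd and 8.06 CPM in Mrgpra3 neurons of the control library and at 538 and 2.63 CPM in the CFA library, while Gfra1 was at 43.6 and 397 CPM and at 34.9 and 287 CPM. Runx1, the transcription factor gene needed for Mrgpr expression in nociceptors, was at 227 against 21.5 CPM and at 351 against 32.9 CPM. Among the markers shared by both groups were Cd55 (1907 and 1345 CPM against 134 CPM in neurons with none of the 5 receptors, control library), Plxnc1 (594 and 592 against 125 CPM) and the sodium channel gene Scn11a (962 and 881 against 272 CPM). Each was also higher in both groups of the CFA library. Cbfb (70.9 and 159 against 315 CPM, control library), Tafa4 (40.6 and 2.09 against 79.4 CPM) and Th (1.34 and 0.90 against 57.4 CPM) went the other way, in both groups of both libraries. Runx1, Ret, Gfra2 and Lpar3 were higher than in those neurons in the Mrgprd group only. Several of these genes served as markers of the classes, and the groups were chosen by the receptors, so the differences describe the neurons and were not tested.

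The 9 control neurons that held Mrgprx1 without Mrgpra3 or Mrgprd were unlike both groups. Trpv1 was at 745 CPM and Trpa1 at 817 CPM in them, against 107 and 74.4 CPM in Mrgpra3 neurons and 42.6 and 171 CPM in Mrgprd neurons, while Cd55 was at 176 CPM and Plcb3 at 136 CPM. The 2 such CFA neurons had 529.9 CPM of Trpv1, 932 CPM of Trpa1, 134 CPM of Cd55 and 168 CPM of Plcb3. Of the 3 groups, their values were nearest to those of neurons with none of the 5 receptors, which had Trpv1 at 396 and 345 CPM and Cd55 at 134 and 111 CPM. Trpa1 was lower in that group, at 371 and 258 CPM. It spans several classes, whereas these Mrgprx1 neurons were all PEP1-like.

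Between the conditions, the summed level in all neurons was lower in the CFA library for 5 of the 6 receptors, and no receptor differed by more than 2-fold. The log2 ratio of CFA over control was −0.44 (−0.52 to −0.37) for Mrgprd, −0.73 (−0.86 to −0.60) for Mrgpra3, −0.87 (−1.27 to −0.49) for Mrgprx1, −0.61 (−1.24 to −0.01) for Mrgprb4, −0.17 (−0.31 to −0.02) for Mrgpre and 0.12 (−0.26 to 0.48) for Mrgprb5. Past 2-fold were 0 of 6 members, and 2.43% of the 14512 genes with at least 50 UMIs in neurons of both libraries together (1.07% higher and 1.35% lower in CFA). The members' median was −0.52 and that of all genes 0.00 on the same log2 scale.

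The shares of NP1-like and NP2-like neurons were also lower in the CFA library. NP1-like neurons made up 21.6% (18.8%–24.7%) of control and 15.9% (12.5%–19.8%) of CFA neurons and 29.6% and 23.6% of neuron UMIs, and NP2-like neurons 6.29% (4.70%–8.21%) and 3.67% (2.07%–5.98%) of neurons and 9.36% and 5.37% of UMIs. Within NP1-like neurons Mrgprd had a log2 ratio of −0.11 (−0.19 to −0.03), and within NP2-like neurons Mrgpra3 had 0.08 (−0.05 to 0.21) and Mrgprb4 0.16 (−0.49 to 0.77). Past 2-fold were 1.47% of 10881 genes within NP1-like and 2.38% of 8363 genes within NP2-like neurons. With the CFA classes weighted by their UMI shares in the control library, an alternative chosen after seeing the data, the log2 ratios were −0.10 for Mrgprd, 0.06 for Mrgpra3, 0.17 for Mrgprb4, −0.48 for Mrgprx1, 0.52 for Mrgprb5 and −0.17 for Mrgpre, whose ratio was also −0.17 without the weights. The ratios of Mrgpra3 and Mrgprb4 were thus below 0 over all neurons and within their class had intervals that included 0. Whether the shares of the classes differ between mice of the conditions or between the dissociations cannot be told apart with 1 library each.

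Mrgprx1 was lower in PEP1-like neurons of the CFA library by a log2 ratio of −1.01 (−1.66 to −0.40), on 115 control and 28 CFA UMIs, and in NP2-like neurons the interval included 0 (−0.33, −0.92 to 0.23). Among the PEP1-like clusters, that led by Nos1 stood furthest apart, at 13.7 CPM on 55 UMIs in 84 control and 3.38 CPM on 4 UMIs in 29 CFA neurons. It made up 84 of 398 control but 29 of 225 CFA PEP1-like neurons. The part of this make-up in the Mrgprx1 ratio was not tested. Mrgprd (−0.97, −1.83 to −0.19, on 68 and 17 UMIs) and Mrgpra3 (−3.29, −8.67 to −0.65, on 20 and 1 UMIs) also had ratios below 0 in PEP1-like neurons. These were not read as lower expression. A single control neuron had 20 of the 68 Mrgprd UMIs and a single CFA neuron 13 of the 17. No PEP1-like neuron held Mrgpra3, which also differed outside neurons (5.68 CPM in the control and 0.20 CPM in the CFA library). Mrgpra2b (0.41) and Mrgpra2a (0.15) had the opposite sign, with intervals that included 0. The share of all genes past 2-fold was not computed for this class. Mrgprb5 was higher in NP1-like neurons of the CFA library (0.53, 0.12–0.92), on 160 and 80 UMIs, while its ratio over all neurons had an interval that included 0. Mrgpre had −0.08 in NP1-like, −0.01 in NP2-like and −0.20 (−0.40 to −0.00) in PEP1-like neurons. RNA of other cells in the neurons also differed between the libraries, as the glial genes Apoe and Fabp7 were at 84.0 and 14.3 CPM in control and 40.6 and 7.75 CPM in CFA neurons, and their part in the ratios was not tested.

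**Figure D5:**
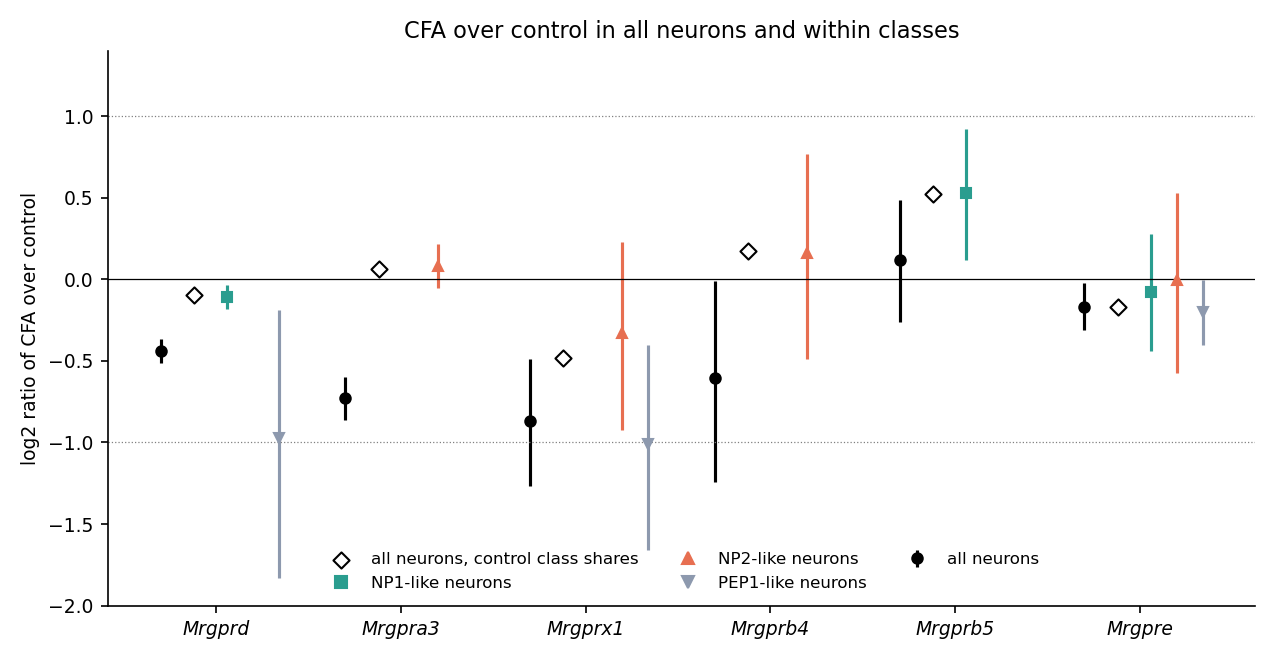
Log2 ratio of CFA over control (y axis, dotted lines at 2-fold) for each receptor gene (x axis) in all neurons (black), in all neurons with the CFA classes weighted as in the control library (diamonds), and within NP1-like, NP2-like and PEP1-like neurons, with bars for exact conditional binomial 95% intervals. For Mrgpra3 the ratio of −0.73 over all neurons stands beside 0.08 within NP2-like neurons.

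Among the lists, 0 of 20 signalling genes and 0 of 16 nonpeptidergic genes with at least 50 UMIs differed by more than 2-fold between the libraries over all neurons, with medians of −0.07 and −0.30, and 2 of 15 itch genes were higher in the CFA library, with a median of 0.21. Of all 14512 genes with at least 50 UMIs, 1.07% were past 2-fold higher and 1.35% lower in CFA. Lists this short can hardly be set against such shares. The 2 itch genes were Il31ra (log2 ratio 1.27, 1.05–1.5) and Htr1f (1.54, 1.16–1.93), markers of the PEP2-like class, which made up 1.51% of control and 2.69% of CFA neurons. Both were at most at 2.63 CPM in the Mrgprd and Mrgpra3 neurons of each library.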

How the data were processed

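Cells of mouse TG were captured with the BD Rhapsody system, 1 library for the control and 1 for the CFA condition. The authors deposited a matrix of whole-number UMI counts per gene and cell for each library, not normalised. The submitters' processing notes name fastp and the GRCm38 build, and the aligner, its version and the annotation are not given in the sources used here. The control library held 48916096 UMIs in 7298 cells and the CFA library 22096268 UMIs in 4080 cells.

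Cells with at least 150 genes and at most 25% mitochondrial UMIs were kept. Cells were clustered with Seurat 5.3.0 (R 4.3.3) on 2000 variable genes, 20 principal components and 20 neighbours, at a resolution of 0.8 for all cells and 1 for neurons, with all genes of the Mrgpr family and Mas1 left out. Clusters were named by listed markers, of which at least 3 had to be detected, a shallow cluster with no marker among its leading genes stayed unnamed, and details of this naming rule were set during the work. The NP2, PEP1 and NF markers overlap with genes the study lists as enriched in its own subtypes of these libraries. Doublets were not removed. Scrublet (scanpy 1.11.5) called 1 and 4 cells by its automatic threshold, which was read as not having worked, and 5 control neurons and 1 CFA neuron scored above 0.25. Python 3.11.15, numpy 2.4.6, scipy 1.17.1 and pandas 2.3.3 were used for all counts.

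Intervals at 95% were computed by the exact Poisson method (CPM), the Clopper-Pearson method (shares of neurons) and the conditional binomial method (ratios). The step was tested on simulated data. A neuron held a gene from 3 UMIs. Genes most like a member were ranked by the lower Pearson's r of both libraries among genes with at least 200 UMIs, for members with at least 10 holders in each library, and the first 5 were named, apart from items that are not reported here. The lists fixed which other genes could be named, those past 2-fold in both libraries were all named, and the further list genes given with values were chosen after their values were seen. Members and lists were chosen with earlier results of these data known. Alternatives covered cell filters, doublets, depth, UMI thresholds, cluster resolution, weighting and scaling.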

Additional observations from a re-analysis of the deposited data

How the results depend on the processing

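Of 651 values recomputed under alternatives, 543 stayed inside the 95% interval of the reported value and 108 did not. With every neuron weighted equally, levels were 122 and 83.5 CPM for Mrgprd and 38.5 and 25.7 CPM for Mrgpra3 in the control and CFA library, log2 ratios of CFA over control were −0.55 and −0.58, and 1 member, Mrgprx1 (−1.05), was past 2-fold. From 1 UMI, 32.1% of control neurons had Mrgprd and 10.9% of control and 5.38% of CFA neurons had Mrgpra3, and in the control library 8.63% of Mrgprd neurons had Mrgpra3, 25.3% of Mrgpra3 neurons had Mrgprd and 92.2% of Mrgprb5 neurons had Mrgprd. From 5 UMIs, 0% of control Mrgprd neurons had Mrgpra3, 0% had the reverse, and 31.1% of Mrgpra3 neurons had Mrgprx1. With neurons thinned to 5000 UMIs, 22.7% of control Mrgpra3 neurons had Mrgprx1, 80% of Mrgprb4 neurons had Mrgpra3 (4 of 5) and 92.3% of Mrgprb5 neurons had Mrgprd, while in the CFA library 0% of Mrgprd neurons had Mrgpra3 and 0% of Mrgpra3 neurons had Mrgprd. With CFA classes weighted by the control shares, chosen after seeing the data, log2 ratios were −0.10 for Mrgprd, 0.063 for Mrgpra3, −0.48 for Mrgprx1, 0.17 for Mrgprb4 and 0.52 for Mrgprb5. Apart from the thresholds, the thinning and the weights themselves, the cause was not tested. No paired analysis was possible because each condition has 1 library. Depth limited Mrgprx1, Mrgprb4 and Mrgprb5, whose holders had few UMIs.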

Other observations

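Other genes of the family were also counted. Mrgprx3-ps, annotated as an unprocessed pseudogene at chr7:47309378-47310295 (GRCm38, minus strand), was at 38.8 CPM in control and 37.5 CPM in CFA neurons. NP1-like neurons had 105 and 119 CPM and cLTMR-like neurons 62.4 and 64.2 CPM, against 0.90 and 0.79 CPM in PEP1-like neurons. Of the Mrgprd holders, 122 of 174 (70.1%) in the control and 42 of 66 (63.6%) in the CFA library held it.

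Mrgpra2b was at 56.2 CPM in control and 34.4 CPM in CFA NP2-like neurons and at 13.9 CPM in NP1-like neurons of each library. Its transcript shares most 50-base stretches with Mrgpra2a, so that the split of reads between them is uncertain. Mrgprf was at 0.70 and 0.30 CPM in neurons and at 34.8 CPM (28 UMIs) and 41.1 CPM (11 UMIs) in non-myelinating Schwann-like cells. Mrgprb2, the mast cell receptor, had 6 UMIs in 2 control cells and 2 UMIs in 1 CFA cell outside the neurons.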
